A study of Mus musculus with 6 samples.

Results

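The Hox genes are the homeobox transcription factor genes that lie in 4 clusters, HoxA to HoxD, and they were taken as every gene of the deposited table whose symbol is Hox followed by a cluster letter and a number. The rule found 39 of the 23224 genes in the table, with 11 in HoxA on chromosome 6, 10 in HoxB on chromosome 11, 9 in HoxC on chromosome 15 and 9 in HoxD on chromosome 2. RNA was sequenced in 6 libraries from mouse AKP organoids, which are tumour cells grown in culture as small epithelial bodies, taken here from tumours that had grown in animals. The labels do not spell out AKP, and all 6 libraries share this background. The Control group held 3 libraries, and the SOX17KO group held 3 libraries of the same organoids in which the transcription factor gene Sox17 was targeted with CRISPR-Cas9. The labels do not say whether the libraries of a group came from separate clones, cultures or animals, so every p-value measures the spread between these libraries, which may be technical. The question put to the Hox genes was which clusters and which positions in them were transcribed, and where Control and SOX17KO differed.

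Within a cluster, Hox genes are numbered by paralogue group, and genes with the same number in different clusters descend from the same ancestral gene. In the embryo, low-numbered genes are switched on early and towards the head, and high-numbered genes later and towards the tail, so that the set of active Hox genes marks position along the body, including along the gut. Polycomb proteins keep silent Hox genes off, Trithorax proteins keep active ones on, TALE homeodomain proteins bind DNA together with Hox proteins, and Cdx proteins and retinoic acid act upstream. Here groups 1 to 3 are called anterior, 4 to 8 central and 9 to 13 posterior.

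Levels are in CPM, estimated read counts scaled to a common library total after TMM adjustment for composition. Levels of different Hox genes were ranked as CPM per kb of mean transcript length. A difference is a log2 fold change, SOX17KO against Control, with its standard error, from edgeR's quasi-likelihood test, and a gene was called where the p-value adjusted over the 12137 genes tested was below 0.05. Library totals ran from 18290912 to 27503254 counts. SOX17KO replicate 1 stood apart from its group: its log2 CPM correlated at 0.960 and 0.963 with the other SOX17KO libraries, which correlated with each other at 0.986. Control libraries correlated with each other at 0.994 to 0.995. With the Control libraries, SOX17KO 1 correlated at 0.946 to 0.951 and SOX17KO 2 and 3 at 0.968 to 0.970. Over all tested genes SOX17KO 1 was thus the library least like Control, though it lay nearest to Control for several Hox values below. Sox17 itself stood at 34.4, 34.5 and 34.2 CPM in Control 1, 2 and 3 and at 33.8, 41.9 and 45.1 CPM in SOX17KO 1, 2 and 3, and edgeR gave a log2 fold change of 0.23 ± 0.12 (adjusted p = 0.345). Reads over the gene as a whole were therefore not lower in the libraries labelled SOX17KO, the position of the targeted site is not given in the labels, and every direction below is between libraries as labelled.

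Of the 39 Hox genes, 19 had enough counts to be tested, 4 had counts but did not pass the filter and 16 were at 0 in every library. All 11 HoxA genes were tested. In HoxB 8 of 10 were tested, Hoxb1 was at 0 in every library, and Hoxb2 had 4 counts over the Control libraries and 2 over the SOX17KO libraries. No gene of HoxC or HoxD was tested: all 9 HoxC genes were at 0, and 6 HoxD genes were at 0. A count of 0 allows a level of up to 0.109 to 0.164 CPM, depending on the library, when taken as an upper limit of 3 counts that covers counting error only. Hoxd3 had 0 counts over the Control libraries and 5 over the SOX17KO libraries, Hoxd8 had 0 and 2, and Hoxd4, described below with its values per library, had 8 and 72. The tested genes are those that passed the count filter, so their counts below describe these 19 and not the whole family.

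The SOX17KO libraries had lower levels of several HoxA genes and higher levels of several HoxB genes. Of the 19 tested Hox genes, 4 fell, all of them HoxA (Hoxa3, Hoxa9, Hoxa10 and Hoxa11), 3 rose, all of them HoxB (Hoxb4, Hoxb6 and Hoxb7), and 12 were not called. Over all tested genes, 3.20% were called lower and 3.67% higher, and 6.87% in either direction. Values of the 3 Control and the 3 SOX17KO libraries did not overlap for 13 of the 19, with 7 lower and 6 higher in SOX17KO, against 28.2% of all tested genes in either direction (14.2% lower and 14.0% higher). The median log2 fold change was -0.58 over the 11 HoxA genes and 0.64 over the 8 tested HoxB genes, beside 0.01 over all tested genes. All 7 calls were lost when any 1 Control library was left out, with the largest adjusted p of a member in edgeR between 0.0562 (Hoxa11) and 0.158 (Hoxb7). Without SOX17KO replicate 1 the calls were 8 lower and 6 higher, the latter including Hoxd4, which is not among the 19.

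**Figure D1:**
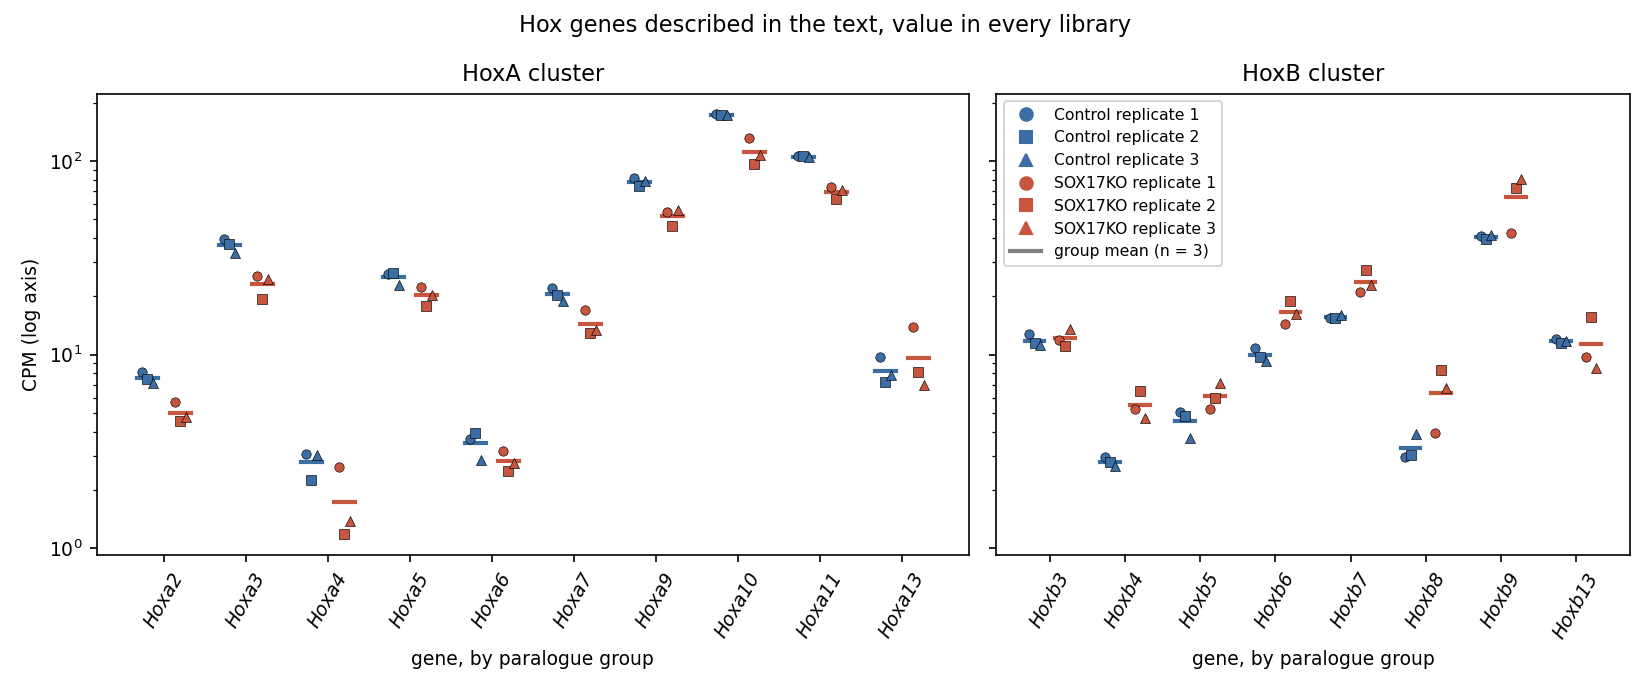
Level of the tested Hox genes described here in every library, as CPM on a log axis, with HoxA and HoxB in separate panels and genes in order of paralogue group; points are single libraries, Control and SOX17KO in different colours. Hoxa9, Hoxa10 and Hoxa11 have all SOX17KO points under all Control points, and Hoxb4 to Hoxb9 have all SOX17KO points above all Control points.

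The sequences just upstream of the starts of 4 Hox genes are shown. Hoxa11 and Hoxa9 were called lower and Hoxb4 higher. These are the called genes with a single promoter entry whose bases after the start were found in the gene's transcripts. Hoxa10 had more than 1 entry, Hoxa3 did not pass this transcript match, and Hoxb6 and Hoxb7 had no entry. Hoxb8, whose values lay above Control in all 3 SOX17KO libraries without a call, was chosen after its values were seen. Each is the 250 bases before the start in RefSeq (GRCm38.p6), written 5′ to 3′ on the gene's own strand in lower case, with any match to the CDX letters TTTATG or their reverse complement CATAAA in capitals. Hoxa11 and Hoxa9 lie on the minus strand at chr6:52245811-52246060 and chr6:52227371-52227620, and Hoxb4 and Hoxb8 on the plus strand at chr11:96318017-96318266 and chr11:96281655-96281904.
Hoxa11: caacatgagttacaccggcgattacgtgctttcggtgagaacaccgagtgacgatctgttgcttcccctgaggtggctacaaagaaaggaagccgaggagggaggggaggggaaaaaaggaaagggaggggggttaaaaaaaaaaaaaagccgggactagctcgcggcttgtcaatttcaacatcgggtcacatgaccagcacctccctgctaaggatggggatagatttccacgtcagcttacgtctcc
Hoxa9: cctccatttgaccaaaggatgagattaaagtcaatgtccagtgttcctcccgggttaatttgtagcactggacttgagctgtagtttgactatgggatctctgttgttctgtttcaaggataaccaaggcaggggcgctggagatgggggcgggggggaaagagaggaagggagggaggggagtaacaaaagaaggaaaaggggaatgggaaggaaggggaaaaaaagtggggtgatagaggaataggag
Hoxb4: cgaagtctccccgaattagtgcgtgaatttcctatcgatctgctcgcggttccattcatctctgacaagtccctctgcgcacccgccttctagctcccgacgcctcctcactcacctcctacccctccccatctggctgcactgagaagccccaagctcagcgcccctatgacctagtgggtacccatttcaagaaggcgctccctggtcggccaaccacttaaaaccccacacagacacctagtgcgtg
Hoxb8: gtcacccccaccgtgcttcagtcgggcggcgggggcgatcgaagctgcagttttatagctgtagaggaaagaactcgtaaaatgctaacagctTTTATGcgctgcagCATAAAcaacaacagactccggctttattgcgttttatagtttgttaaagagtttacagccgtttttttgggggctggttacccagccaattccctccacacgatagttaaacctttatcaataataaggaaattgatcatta

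In these 4 windows only the Hoxb8 sequence held capitals, with TTTATG 157 bases and CATAAA 143 bases before the start, counted from the first base of the match. The table of promoters had an entry for 22 of the 39 Hox genes, 5 of them among the 7 called genes, and for 12 HoxA and HoxB genes. Searched on both strands in the same 250 bases, the SOX letters ATTGTT, which read AACAAT on the other strand, were in 0 of the 12, the CDX letters in 2 (Hoxa7 and Hoxb8), and the MEIS letters TGACAG, which read CTGTCA on the other strand, in 2 (Hoxa2 and Hoxa3). The entries of Hoxa7 and Hoxa3 did not pass the transcript match but are in these counts. Over all 32851 promoters of the table the shares were 9.42% for SOX, 10.8% for CDX and 15.9% for MEIS. The printed windows differed in base content: Hoxa9 had a GC content of 49.6% and 3 CpG sites, Hoxa11 52.0% and 13, Hoxb4 58.0% and 14, and Hoxb8 44.4% and 12, against medians of 52.4% and 6 over all promoters. A match of 6 letters describes the sequence and is not evidence of binding.

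In Control the highest levels of the family were those of 3 of the 4 posterior HoxA genes. Per kb of transcript, Hoxa10 was highest at 86.6 CPM per kb (86.4 to 86.9 over the 3 libraries), followed by Hoxa11 at 46.1 (45.8 to 46.4), Hoxa9 at 24.2 (22.9 to 25.3) and Hoxb9 at 15.8 (15.3 to 16.2). These 4 ranges did not overlap. Hoxa3 at 14.2, Hoxa5 at 13.4 and Hoxb7 at 12.1 CPM per kb came next, and the range of Hoxa5 (12.2 to 14.1) overlapped those of Hoxa3 (12.9 to 15.3) and Hoxb7 (11.9 to 12.4), so these neighbours were not separated by their spread. Among the lowest tested genes in Control were Hoxb4 at 1.09, Hoxb8 at 1.25 and Hoxa4 at 1.75 CPM per kb. In SOX17KO the highest means were those of Hoxa10 at 55.8 CPM per kb (48.3 to 65.6), Hoxa11 at 30.3 (27.8 to 32.0), Hoxb9 at 25.3 (16.5 to 31.3), Hoxb7 at 18.4 (16.3 to 21.2) and Hoxa9 at 16.2 (14.3 to 17.4). Only Hoxa10 was apart from the next gene in that order, and the range of Hoxb9 overlapped those of Hoxa11, Hoxb7 and Hoxa9. Transcript lengths come from a newer build than the authors' counts and, for genes with more than 1 transcript, are means: with the longest transcript Hoxa10 in Control would be 67.5 CPM per kb, still above Hoxa11.

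Hoxa10 is a posterior gene that takes part in limb and uterine patterning. It stood at 173.9, 173.0 and 172.8 CPM in Control 1, 2 and 3 and at 131.2, 96.7 and 107.2 CPM in SOX17KO 1, 2 and 3. The Control values were nearly equal, and each SOX17KO value lay below all of them, the first least so. Hoxa10 fell by 0.63 ± 0.12 on the log2 scale (edgeR adjusted p = 0.0237), from 173 ± 0.574 to 112 ± 17.7 CPM (SD, n = 3). Hoxa11, whose product patterns the forelimb, kidney and uterus, stood at 106.1, 105.6 and 104.8 CPM in Control and 73.1, 63.7 and 70.8 CPM in SOX17KO. The groups were again well apart, with little spread in either. Hoxa11 fell by 0.61 ± 0.08 on the log2 scale (edgeR adjusted p = 0.00677), the smallest adjusted p of the family. Hoxa9, a gene also known for its part in blood stem cells and leukaemia, stood at 81.6, 74.0 and 78.7 CPM in Control and 54.6, 46.1 and 56.1 CPM in SOX17KO. All SOX17KO values lay below all Control values, and Hoxa9 fell by 0.58 ± 0.10 on the log2 scale (edgeR adjusted p = 0.0169).

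Hoxa13, the most posterior HoxA gene, active in the embryonic hindgut and in the digits, did not follow the other posterior HoxA genes. Its levels were 9.70, 7.22 and 7.84 CPM in Control and 13.8, 8.16 and 6.93 CPM in SOX17KO. SOX17KO replicate 1 was the highest library and replicate 3 the lowest, so the groups overlapped. The log2 fold change was 0.23 ± 0.27, with a 95% interval from -0.42 to 0.87 (edgeR adjusted p = 0.741), and without SOX17KO replicate 1 it was -0.13. Of the 4 posterior HoxA genes, 3 fell and 1 was not called. The ratio of Hoxa13 to Hoxa11, both per kb, was 0.160, 0.120 and 0.131 in Control and 0.330, 0.224 and 0.171 in SOX17KO. It was higher in each SOX17KO library than in any Control library, by a small margin in replicate 3. This ratio was not tested, restates the values of the 2 genes, and has no share over other gene pairs beside it.

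Among the 3 anterior HoxA genes, Hoxa3, which patterns the thymus, parathyroid and neck, was the most abundant per kb of transcript and the only one called. It stood at 39.6, 37.1 and 33.4 CPM in Control and 25.6, 19.4 and 24.4 CPM in SOX17KO, with no overlap. Hoxa3 fell by 0.66 ± 0.13 on the log2 scale (edgeR adjusted p = 0.0284). Hoxa2, a gene of hindbrain and second branchial arch identity, stood at 8.18, 7.46 and 7.15 CPM in Control and 5.73, 4.52 and 4.77 CPM in SOX17KO. Its groups did not overlap either, but with a log2 fold change of -0.60 ± 0.16 it was not called (edgeR adjusted p = 0.0735). With 1 library left out, the edgeR adjusted p ran from 0.00687 (without SOX17KO replicate 1) to 0.274 (without Control replicate 1).

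None of the 4 central HoxA genes was called in edgeR, where 2 had an unadjusted p below 0.05 on the lower side. DESeq2 called 1 of the 4 lower (Hoxa7) and limma-voom 0. Hoxa5, which is needed for lung and gut development, stood at 26.2, 26.6 and 22.9 CPM in Control and 22.4, 17.8 and 20.3 CPM in SOX17KO. The highest SOX17KO value lay just under the lowest Control value, and the log2 fold change was -0.32 ± 0.12 (edgeR adjusted p = 0.19). With 1 library left out, the edgeR adjusted p ran from 0.0235 (without SOX17KO replicate 1) to 0.515 (without Control replicate 2). Hoxa7, a thoracic patterning gene, stood at 22.1, 20.3 and 19.0 CPM in Control and 17.0, 12.9 and 13.4 CPM in SOX17KO. All SOX17KO values were below Control, and the log2 fold change was -0.50 ± 0.14 (edgeR adjusted p = 0.0821). For Hoxa7 the same fits gave 0.00211 (without SOX17KO replicate 1) to 0.282 (without Control replicate 1). Hoxa4 and Hoxa6 were scarcer per kb, and their groups overlapped. Hoxa4 stood at 3.08, 2.25 and 3.04 CPM in Control and 2.63, 1.19 and 1.39 CPM in SOX17KO, and its log2 fold change was -0.67 ± 0.34 (edgeR adjusted p = 0.337). Without SOX17KO replicate 1 it was -1.13 (edgeR adjusted p = 0.0108), and without Control replicate 1 it was -0.60 (edgeR adjusted p = 0.63). Hoxa6 stood at 3.65, 3.92 and 2.85 CPM in Control and 3.17, 2.50 and 2.77 CPM in SOX17KO, and its log2 fold change was -0.30 ± 0.21 (edgeR adjusted p = 0.506).

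Over the whole HoxA cluster, 10 of 11 log2 fold changes were negative and 4 genes fell, while 0 were called higher by edgeR, DESeq2 or limma-voom, and 0 were higher at an unadjusted p below 0.05. The summed CPM of the cluster was 477, 459.7 and 454 in Control and 352, 275 and 309.7 in SOX17KO, that is 464 ± 11.6 against 312 ± 38.3 CPM (SD, n = 3), a ratio of 0.673. These 4 calls were lost without any 1 Control library. The log2 fold change of Hoxa11 was then -0.61, -0.61 and -0.62 without Control 1, 2 and 3. Over all tested genes the calls went from 446 higher and 388 lower to 97 to 99 and 94 to 105 in the same fits. Hoxa3, Hoxa9, Hoxa10 and Hoxa11 had adjusted p-values of up to 0.137, 0.103, 0.118 and 0.0562 in edgeR when 1 Control library was left out, and without SOX17KO replicate 3 Hoxa3 and Hoxa10 reached 0.0582 and 0.071. Scaling by library totals alone gave 0.0523 for Hoxa3 and 0.0533 for Hoxa10 in edgeR.

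The HoxB genes differed the other way. In Control the cluster was led per kb by Hoxb9 at 15.8 and Hoxb7 at 12.1 CPM per kb, then Hoxb6 at 7.54, Hoxb13 at 5.34 and Hoxb3 at 4.64, and Hoxb5, Hoxb8 and Hoxb4 were lowest at 2.38, 1.25 and 1.09. Hoxb4, a central gene known for its effect on blood stem cells, stood at 2.97, 2.77 and 2.66 CPM in Control and 5.23, 6.50 and 4.71 CPM in SOX17KO. Every SOX17KO value was well above every Control value. Hoxb4 rose by 0.97 ± 0.19 on the log2 scale (edgeR adjusted p = 0.0286), from 2.80 ± 0.154 to 5.48 ± 0.918 CPM (SD, n = 3), the largest change among the called Hox genes. Hoxb6 and Hoxb7 are central genes of trunk patterning. Hoxb6 stood at 10.8, 9.76 and 9.28 CPM in Control and 14.5, 19.0 and 16.2 CPM in SOX17KO and rose by 0.73 ± 0.14 on the log2 scale (edgeR adjusted p = 0.0251). Hoxb7 stood at 15.5, 15.4 and 16.1 CPM in Control and 21.0, 27.4 and 22.8 CPM in SOX17KO and rose by 0.60 ± 0.12 (edgeR adjusted p = 0.0308). In both genes the Control values were close together, and replicate 2 was the highest and replicate 1 the lowest of the SOX17KO libraries.

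Hoxb5 and Hoxb8 completed the central HoxB genes, and their groups did not overlap but they were not called. Hoxb5, a gene of enteric nervous system and lung development, stood at 5.03, 4.83 and 3.69 CPM in Control and 5.23, 5.97 and 7.15 CPM in SOX17KO, and its log2 fold change was 0.43 ± 0.20 (edgeR adjusted p = 0.286). Hoxb8 stood at 2.97, 3.01 and 3.88 CPM in Control and 3.93, 8.34 and 6.76 CPM in SOX17KO. SOX17KO replicate 1 lay just above the highest Control library and the other SOX17KO libraries far above it, and the log2 fold change was 0.94 ± 0.30 (edgeR adjusted p = 0.119). With 1 library left out, the edgeR adjusted p ran from 0.00126 (without SOX17KO replicate 1) to 0.362 (without Control replicate 2). Thus 3 of the 5 central HoxB genes rose, and all 5 had higher values in every SOX17KO library.

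Of the posterior HoxB genes, Hoxb9 is the last of the compact part of the cluster, and Hoxb13, a gene of the tail, hindgut and prostate, lies apart from the rest. Hoxb9 stood at 40.9, 39.5 and 41.6 CPM in Control and 42.4, 72.2 and 80.6 CPM in SOX17KO. SOX17KO replicate 1 was only just above the Control libraries, and the other SOX17KO libraries were far above. The log2 fold change was 0.68 ± 0.22, with a 95% interval from 0.16 to 1.20, and was not called (edgeR adjusted p = 0.131). Without SOX17KO replicate 1 it was 0.91 (edgeR adjusted p = 2.98e-05), and without Control replicate 2 it was 0.65 (edgeR adjusted p = 0.364). Hoxb13 stood at 12.1, 11.5 and 11.8 CPM in Control and 9.77, 15.7 and 8.54 CPM in SOX17KO. The SOX17KO values lay on both sides of the narrow Control range, and the log2 fold change was -0.05 ± 0.23 with a 95% interval from -0.59 to 0.48 (edgeR adjusted p = 0.94). Hoxb3, the only tested anterior HoxB gene, stood at 12.7, 11.5 and 11.1 CPM in Control and 11.9, 11.1 and 13.6 CPM in SOX17KO. The groups overlapped, with a log2 fold change of 0.05 ± 0.13 and a 95% interval from -0.25 to 0.35 (edgeR adjusted p = 0.896).

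Summed over the 10 HoxB genes, CPM was 103, 98.4 and 100.1 in Control and 114, 166 and 160.5 in SOX17KO, that is 100.5 ± 2.32 against 147 ± 28.6 CPM (SD, n = 3), a ratio of 1.46. Every SOX17KO sum was above every Control sum, replicate 1 by the smallest margin. Of the 8 tested HoxB genes, 7 log2 fold changes were positive and 3 genes rose, while 0 were called lower by edgeR, DESeq2 or limma-voom or had an unadjusted p below 0.05 on the lower side. When 1 Control library was left out, the adjusted p in edgeR reached 0.149 for Hoxb4, 0.138 for Hoxb6 and 0.158 for Hoxb7. Without SOX17KO replicate 2 these genes had adjusted p-values of 0.0572, 0.054 and 0.0516 in edgeR, and without SOX17KO replicate 3 Hoxb6 and Hoxb7 had 0.0588 and 0.0611.

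**Figure D2:**
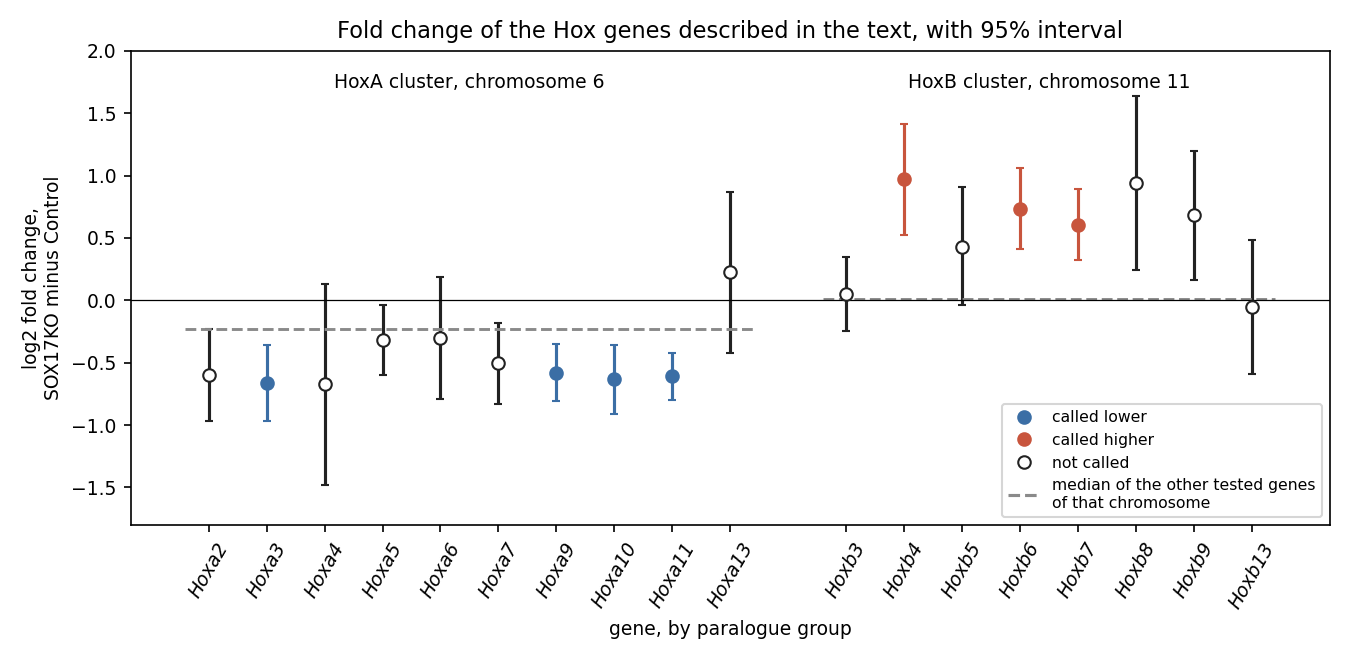
Log2 fold change, SOX17KO against Control, of the tested Hox genes described here, with its 95% interval from edgeR, in order of paralogue group; the dashed line is the median of the other tested genes of the same chromosome. HoxA values run from -0.67 (Hoxa4) to 0.23 (Hoxa13), with Hoxa13 alone above 0, and HoxB values from -0.05 (Hoxb13) to 0.97 (Hoxb4), with Hoxb13 alone below 0.

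Of the 7 paralogue pairs with both the HoxA and the HoxB gene tested, 6 had a ratio of HoxB to HoxA that separated the groups, also in group 5, where neither gene was called. Per kb, Hoxb9 stood at 0.628, 0.668 and 0.662 times Hoxa9 in Control and at 0.973, 1.96 and 1.80 times Hoxa9 in SOX17KO. Hoxb4 stood at 0.599, 0.767 and 0.544 times Hoxa4 in Control and 1.23, 3.41 and 2.11 times in SOX17KO. In both pairs the SOX17KO ratios were all above the Control ratios, and replicate 1 was the closest to Control. The ratio of Hoxb6 to Hoxa6 was 1.96, 1.65 and 2.15 in Control and 3.02, 5.03 and 3.86 in SOX17KO, and that of Hoxb7 to Hoxa7 was 1.09, 1.18 and 1.32 against 1.93, 3.30 and 2.65. The ratio of Hoxb5 to Hoxa5 went from 0.190, 0.180 and 0.160 to 0.231, 0.332 and 0.348, and that of Hoxb3 to Hoxa3 from 0.328, 0.317 and 0.340 to 0.475, 0.580 and 0.569. In group 13 the ratio of Hoxb13 to Hoxa13 was 0.737, 0.943 and 0.893 in Control and 0.420, 1.14 and 0.731 in SOX17KO, and the groups overlapped. The ratios were not tested. They restate the HoxA and HoxB values given above, which mostly differed in opposite directions, and are no separate evidence. No share over other pairs of genes was worked out beside them.

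Sums over paralogue groups showed which group levels differed along with their members. Paralogue group 9 summed to 41.2, 38.3 and 40.6 CPM per kb in Control and 33.4, 42.3 and 48.7 CPM per kb in SOX17KO, that is 40.0 ± 1.53 against 41.5 ± 7.69 (SD, n = 3), with overlapping groups. Groups 10 and 11 were supplied by HoxA alone in these libraries and summed to 86.6 ± 0.287 and 46.1 ± 0.299 CPM per kb in Control against 55.8 ± 8.85 and 30.3 ± 2.14 in SOX17KO. Group 6 summed to 11.5 ± 1.09 against 15.7 ± 1.37 and group 7 to 22.3 ± 0.602 against 25.6 ± 1.81 CPM per kb. The sums of groups 2 and 3 were lower, and those of groups 4 and 8 higher, in every SOX17KO library than in any Control library. Those of groups 1, 5 and 13 overlapped. Group 4 included Hoxd4, which did not pass the count filter and supplied 0.909 of the 3.61 CPM per kb in SOX17KO 3. Without Hoxd4 that library would lie below Control 1, at 3.13 CPM per kb with Hoxd4 included, so the separation of group 4 rested on it. Group 12 exists only in HoxC and HoxD and was at 0. HoxB supplied 19.1%, 18.9% and 19.4% of the summed Hox CPM per kb in Control and 26.4%, 39.7% and 35.6% in SOX17KO, and HoxA nearly all of the rest. The sum over all 39 genes was 579.7, 558.2 and 554.5 CPM in Control and 466.0, 442.0 and 472.7 CPM in SOX17KO. Bulk RNA cannot tell fewer cells transcribing a gene from less RNA per cell.

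**Figure D3:**
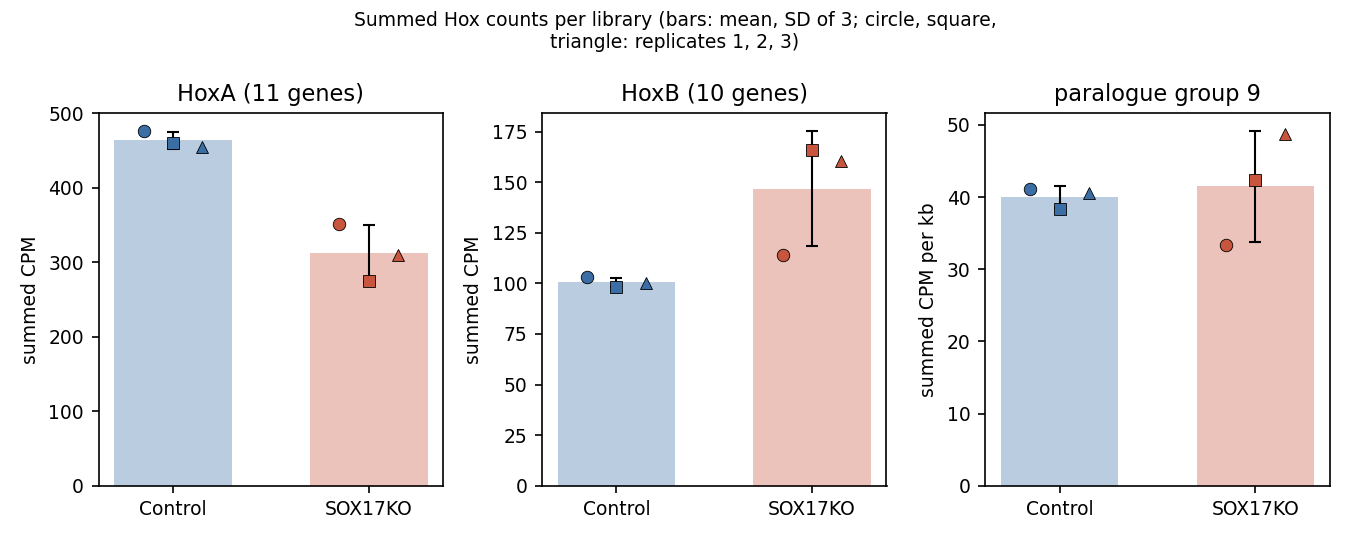
Summed CPM of the 11 HoxA genes (left) and the 10 HoxB genes (middle), and summed CPM per kb of paralogue group 9 (right); bars are group means, error bars the SD of 3 libraries, and points the libraries, with circle, square and triangle for replicates 1, 2 and 3. The HoxA mean goes from 464 to 312 CPM and the HoxB mean from 100.5 to 147 CPM with replicate 1 nearest to Control. Group 9 has means of 40.0 and 41.5 CPM per kb, with SOX17KO replicate 1 below and replicates 2 and 3 above the Control libraries.

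HoxD was nearly silent apart from Hoxd4, a central gene of hindbrain and neck patterning. It had 3, 4 and 1 counts in Control 1, 2 and 3 and 10, 20 and 42 counts in SOX17KO 1, 2 and 3, or 0.109, 0.191 and 0.0380 CPM against 0.382, 0.878 and 2.33 CPM. Every SOX17KO library was above every Control library, and replicate 3 was the highest by far. The ratio of counts per total between the groups was 10.2, with an exact 95% interval of 4.90 to 24.5 that covers counting error only and not the spread between libraries. Hoxd4 did not pass the count filter, so it has no test beside the others. With no filter its log2 fold change was 3.35 (edgeR adjusted p = 0.0478), DESeq2 gave 3.42 (adjusted p = 0.00544), and leaving out 1 library gave edgeR adjusted p-values from 0.00183 (without SOX17KO replicate 1) to 0.239 (without Control replicate 3).

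The table also held noncoding genes that lie between Hox genes. Hoxa11as, the antisense transcript of the Hoxa11 locus, stood at 98.7, 94.3 and 95.8 CPM in Control and 68.8, 66.5 and 68.0 CPM in SOX17KO. It fell with Hoxa11, by 0.51 ± 0.07 on the log2 scale (edgeR adjusted p = 0.00757, or up to 0.0601 with Control replicate 1, 2 or 3 left out, without a call). The library kit keeps strand, but the strand setting of the counting is not given in the sources used here, so reads of Hoxa11 and Hoxa11as cannot be told apart. Of the other HoxA noncoding genes, Mira went from 15.5 ± 0.171 to 11.7 ± 0.956 CPM (SD, n = 3) and edgeR put its log2 fold change at -0.41 ± 0.11 (adjusted p = 0.0728), and that of 2700086A05Rik at -0.41 ± 0.18 (adjusted p = 0.256). In HoxB, Gm53 had 0.32 ± 0.16 (edgeR adjusted p = 0.332). All 4 noncoding genes had groups that did not overlap, 3 lower in HoxA and 1 higher in HoxB, where 43.3% of the other tested genes of chromosome 6 did so on the lower side and 11.6% of those of chromosome 11 on the higher side. In RefSeq, the span of Hoxa3 overlaps Hoxa4, Hoxa5 and Hoxa6, that of Hoxb3 overlaps Hoxb4, and that of Hoxd3 overlaps Hoxd4. How the counting divided reads there is not given. Of the 234 Hox values, 30 were not whole numbers.

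The genes beside the clusters were compared with them in the same fit. For HoxA, the 10 tested genes on each side had a median log2 fold change of -0.07, and 0 of 20 were called by edgeR, against 3 lower and 1 higher at an unadjusted p below 0.05, with 0 called by limma-voom and 1 lower by DESeq2. Skap2, next to the anterior end of the cluster, stood at 185 ± 4.20 against 148 ± 29.4 CPM (log2 fold change -0.32 ± 0.14, edgeR adjusted p = 0.268). Evx1, a homeobox gene next to Hoxa13, stood at 1.30, 1.72 and 1.67 CPM in Control and 36.0, 3.42 and 4.27 CPM in SOX17KO. All SOX17KO values were higher and replicate 1 much higher than the others, and its log2 fold change of 3.23 ± 0.95 was not called (edgeR adjusted p = 0.102). For HoxB, the median of the 20 neighbours was 0.06, and 2 were called higher, Prr15l (0.45 ± 0.07, edgeR adjusted p = 0.0145) and Scrn2 (0.80 ± 0.18, edgeR adjusted p = 0.0474), both named after their values were seen and neither called without Control replicate 1, 2 or 3 (edgeR adjusted p up to 0.11 and 0.214), nor Scrn2 without SOX17KO replicate 2. The nearest neighbours of HoxB, Ttll6 and Snx11, had log2 fold changes of 0.16 and -0.04 (edgeR adjusted p = 0.929 and 0.937). Beside the clusters with no tested gene, Calcoco1 and Smug1 next to HoxC had log2 fold changes of -0.37 and 0.06, and Lnp and Mtx2 next to HoxD had -0.17 and 0.06, none of them called (edgeR adjusted p = 0.329, 0.786, 0.49 and 0.763).

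Chromosome 6, taken over its whole length, was also lower in SOX17KO, mainly in the part far after HoxA. Its 575 other tested genes had a median log2 fold change of -0.23, 75.1% of them negative, with 10.3% called lower and 2.43% higher and with groups that did not overlap in 43.3% on the lower and 5.57% on the higher side. Measured against this median, 9 of the 11 HoxA genes were lower, and the 95% interval lay wholly below it for the 4 called ones. Their differences from it were -0.43 (Hoxa3), -0.34 (Hoxa9), -0.40 (Hoxa10) and -0.37 (Hoxa11), and they had been called on the same fold changes. Over these 4, the share of the 575 other genes with a lower log2 fold change ran from 8.87% (Hoxa3) to 11.3% (Hoxa9). None of the 4 therefore lay outside the spread of the chromosome's other genes. The shift was not even along the chromosome: in RefSeq gene order the 156 tested genes before HoxA had a median of -0.03, the next 50 after it -0.10 and the remaining 366 after it -0.30, stretches that were chosen after the values were seen. Per library, the median difference from the Control mean in log2(CPM + 0.1) was -0.27, -0.73 and -0.58 for the HoxA genes in SOX17KO 1, 2 and 3, beside -0.23, -0.28 and -0.21 for the other chromosome 6 genes. The median of the 20 nearest tested neighbours of HoxA was 0.13, -0.33 and -0.14 in the same libraries, that of the 156 genes before it 0.18, -0.27 and -0.08, that of the next 50 after it 0.05, -0.25 and -0.11, and that of the remaining 366 was -0.36, -0.28 and -0.25. HoxA was below its nearest neighbours in each SOX17KO library, while in SOX17KO 1 its median was near that of the chromosome as a whole. For HoxB the same differences were 0.24, 0.82 and 0.68, beside 0.02, 0.01 and -0.03 for the 1002 other tested genes of chromosome 11, of which 2.59% were called lower and 2.99% higher. The part of the chromosome 6 shift in the HoxA values was not tested.

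**Figure D4:**
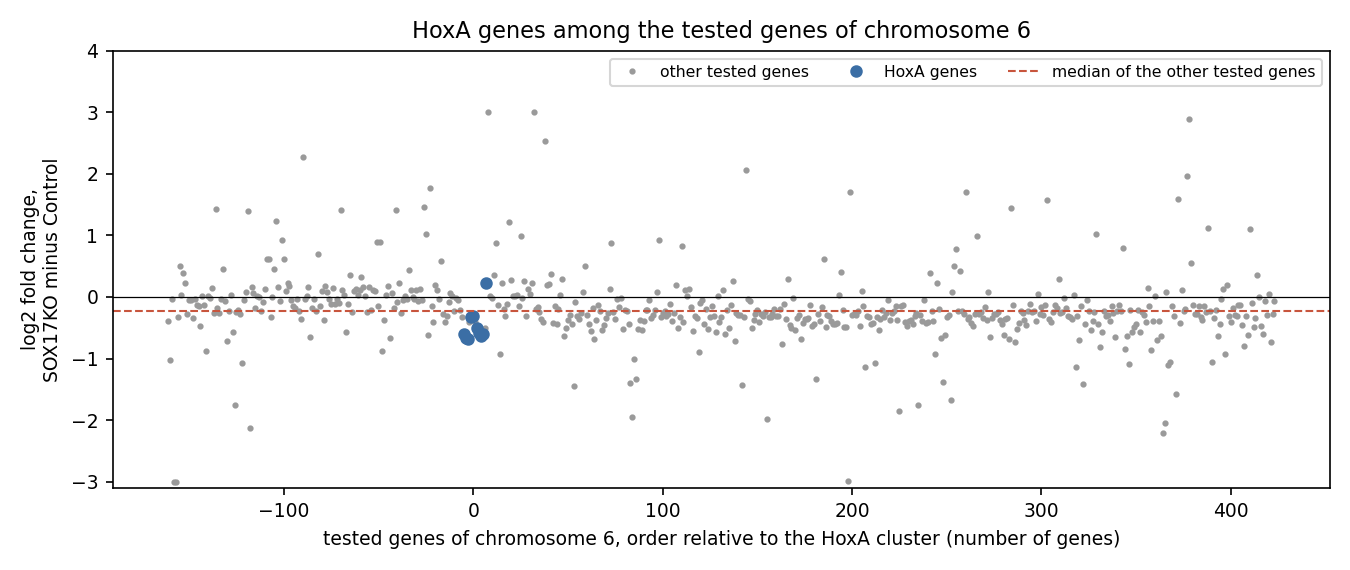
Log2 fold change, SOX17KO against Control, of the tested genes of chromosome 6 in gene order, counted in genes from the HoxA cluster; large points are the HoxA genes described here, small points other genes, and the dashed line the median of the others at -0.23. A total of 4 genes beyond 3 or below -3 are drawn at the edge; most HoxA genes lie below the line, while genes to their left scatter around 0 and those far to their right around -0.30.

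Of the 9 TALE cofactor genes, which act with Hox proteins, 8 were tested. Their median log2 fold change was 0.33, and 0 were called lower by edgeR, DESeq2 or limma-voom, with 1 at an unadjusted p below 0.05 on that side. On the higher side edgeR and DESeq2 each called 1 and limma-voom 0, and 3 had an unadjusted p below 0.05 in edgeR. Of the 6 caudal and ParaHox genes, 2 were tested and 0 were called by edgeR, DESeq2 or limma-voom, and 0 had an unadjusted p below 0.05. Cdx2, a regulator of intestinal identity and of Hox genes, stood at 127 ± 3.50 against 138 ± 9.78 CPM (log2 fold change 0.12 ± 0.08, edgeR adjusted p = 0.507). Cdx4, Gsx1 and Gsx2 were at 0.

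All 30 Polycomb genes of the list were tested, and 4 fell and 1 rose, with a median of -0.03. Cbx6 fell from 233 ± 11.7 to 157 ± 8.92 CPM, by -0.57 ± 0.08 in log2 terms (edgeR adjusted p = 0.00887), Phc1 from 60.4 ± 2.89 to 36.3 ± 5.20 CPM (-0.74 ± 0.12, edgeR adjusted p = 0.0145) and Aebp2 from 177 ± 6.14 to 141 ± 5.04 CPM (-0.33 ± 0.07, edgeR adjusted p = 0.0427). Cbx6 and Phc1 encode subunits of Polycomb repressive complex 1 and Aebp2 a partner of complex 2, and of these Cbx6 lies on chromosome 15, while Phc1 and Aebp2 lie on chromosome 6. The gene that rose was Phf19, which binds complex 2 and was named after its values were seen. Phf19 stood at 4.56 ± 0.244 against 11.2 ± 4.76 CPM (1.29 ± 0.29, edgeR adjusted p = 0.0451). None of the 14 Trithorax and H3K27 demethylase genes was called by edgeR, DESeq2 or limma-voom or had an unadjusted p below 0.05, with a median of 0.07, and Ash1l, a histone methyltransferase gene, stood at 136 ± 6.52 against 138 ± 6.93 CPM. Of 18 retinoic acid pathway genes, 11 were tested and 2 fell: Dhrs3, a retinaldehyde reductase, from 77.5 ± 8.25 to 50.9 ± 6.51 CPM (-0.61 ± 0.13, edgeR adjusted p = 0.0337), and Rxra, a partner of the retinoic acid receptors, from 40.2 ± 1.66 to 28.9 ± 3.40 CPM (-0.48 ± 0.11, edgeR adjusted p = 0.0428). None of this list was called higher by edgeR or limma-voom, DESeq2 called 1, and 2 had an unadjusted p below 0.05 on that side. All 6 of the Polycomb and retinoic acid calls named here were lost in edgeR without Control replicate 1 or 2, and all but that of Cbx6 without Control replicate 3, with the largest adjusted p from 0.0705 (Cbx6) to 0.226 (Aebp2). Without SOX17KO replicate 2, Aebp2 and Dhrs3 were not called, nor were Aebp2, Dhrs3 and Rxra without SOX17KO replicate 3, and limma-voom did not call Phf19 (adjusted p = 0.0733). These lists are described by their counts beside the 3.20% and 3.67% called over all tested genes.

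Most markers of other cell types that could hold Hox RNA were at or near 0. Of 14 mesenchymal markers, 6 were at 0 in every library (Col3a1, Dcn, Lum, Des, Twist2 and Thy1), Vim had 7 and 17 counts over the Control and SOX17KO libraries, and only Twist1 was tested. Twist1 made up nearly all of the list's summed level, which was 90.5 to 91.9 CPM in Control and 38.9 to 84.1 CPM in SOX17KO with replicate 1 the lowest, and it was not called (log2 fold change -0.47, edgeR adjusted p = 0.389). Of 9 endothelial and immune markers 2 were at 0 and the list summed to 0.398 to 0.799 CPM in Control and 0.305 to 0.776 CPM in SOX17KO, and of 7 neural and muscle markers 3 were at 0, with sums of 2.58 to 3.00 and 1.56 to 2.88 CPM. All 8 epithelial markers were tested and summed to 13461 to 14257 CPM in Control and 9916 to 14143 CPM in SOX17KO, again with replicate 1 the lowest. Among them Epcam and Cldn7 rose and Cldn3 fell, and Cldn3 alone was also called without any 1 Control library (edgeR adjusted p up to 0.0166, against 0.207 for Epcam and 0.143 for Cldn7). The part of these marker levels in the Hox values was not tested.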

How the data were processed

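Poly(A)-selected RNA was made into directional libraries, per the labels' protocols, and the tools and build listed in the submitters' processing notes are RSEM, Bowtie and mm9, with no role, order or version. The authors deposited 1 table of expected counts, which are RSEM's estimates of reads per gene, for 6 libraries, and no annotation, strand setting or filter is given in the sources used here. Expected counts were rounded to whole numbers and tested with edgeR 4.0.16 (quasi-likelihood F test, TMM, default count filter with a minimum count of 10 and a minimum total of 15, 1 coefficient for genotype) in R 4.3.3, with Benjamini-Hochberg adjustment over the 12137 genes tested. The standard error is the size of the log2 fold change divided by the square root of F. DESeq2 1.42.0 and limma-voom (limma 3.58.1), other scalings and filters, unrounded counts, a replicate block and fits without each library were alternatives.

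CPM per kb used the mean length of GENCODE M21 transcripts that carry a RefSeq accession (GRCm38), and neighbours came from RefSeq gene order, in which 98.9% of the 23224 genes were found. Intervals cover 95%. On simulated data for this comparison (12039 genes), the test recovered 16.4% of 1.5-fold, 68.7% of 2-fold and 92.2% of 4-fold changes, with 6 false calls of 122. The Hox genes and the gene lists were chosen with earlier results of these data known. A few genes are not reported here, though the counts include them. Every other Hox gene that passed the filter is named, other Hox genes by counts, up to 3 called genes by smallest p of each list or else its most abundant one, the tested gene on each side of each cluster, and tested noncoding genes inside a cluster. Hox genes outside the filter with fewer than 10 counts in each library are named where a count of 5 or fewer would otherwise hide them.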

Additional observations from a re-analysis of the deposited data

How the results depend on the processing

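The Hox calls, 3 higher and 4 lower, were 3 and 4 with RLE size factors, a filter of at least 1 CPM in 3 libraries, limma-voom and unrounded counts. They were 6 higher and 6 lower in DESeq2, 5 and 7 in limma-voom with library quality weights (chosen after seeing the data), 4 and 4 without a count filter, and 3 and 2 with library totals alone. Hoxd4, which did not pass the main count filter, is among the higher calls in DESeq2, without a count filter and without SOX17KO replicate 1. Leaving out 1 library gave 0 to 6 higher and 0 to 8 lower: 0 and 0 without any 1 Control library, where edgeR still gave 4 to 6 higher and 6 to 7 lower at an unadjusted p below 0.05, 6 and 8 without SOX17KO replicate 1, 0 and 4 without replicate 2, and 1 and 2 without replicate 3. Over all genes, 446 higher and 388 lower became 771 and 668 in DESeq2, 1111 and 951 with quality weights, and 97 to 1453 and 94 to 1255 without 1 library. Among the Hox genes described, signs changed only for ones that were not called: Hoxb13 was 0.02 with quality weights. Without 1 library Hoxa13 ranged from -0.13 (without SOX17KO replicate 1) to 0.41, Hoxb3 from -0.04 (without SOX17KO replicate 3; -0.002 without Control replicate 3) to 0.11, and Hoxb13 from -0.36 to 0.11 (without SOX17KO replicate 3; 0.05 without replicate 1). The causes were not tested.

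Deviations of same-numbered libraries from their group means had correlations of -0.186, -0.0467 and -0.181. With 3 libraries in a group such deviations depend on one another, so these values cannot show whether the numbers pair the libraries. With a replicate block edgeR called 0 Hox genes higher and 0 lower, against 5 and 6 at an unadjusted p below 0.05, and 183 and 143 of all genes.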
